A study of Populus sp. cv. 'Okanese' with 18 samples.

Results

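GIGANTEA (GI) and ZEITLUPE (ZTL) are partner proteins of the plant circadian clock, and genes given these names were followed in leaves of the hybrid poplar Populus × 'Okanese'. The members were taken by gene identifier: Potri.005G196700 and Potri.002G064400 carry the name GI, and Potri.010G105700 and Potri.008G135200 carry the name ZTL. They are 4 of 31033 genes in the table of read counts, all 4 had counts, and all 4 were among the 23700 genes that passed the expression filter and were tested. Trees were raised from clippings of 1 cultivar in a greenhouse for 42 days and were then held for 21 days at 1 of 3 gravimetric soil water contents (SWCg), with 80 % of field capacity as the well-watered control and 50 % and 30 % as the drier treatments. The first leaf that developed under the treatment was taken in the late morning (LM, 10 h) or the early evening (EE, 16 h), which gives 6 groups (LM80, LM50, LM30, EE80, EE50 and EE30) of 3 libraries with the letters A, B and C. No transgene or mutant was involved, and all groups share the cultivar, the greenhouse and the leaf position. One label gives the soil water values per gram, whereas the methods give them as a share of field capacity, and the latter is used here.

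GI is a large plant protein whose transcript, in Arabidopsis, cycles with a peak late in the day. In blue light it binds a small family of F-box proteins with a light-sensing LOV domain, which comprises ZTL, FKF1 and LKP2, and binding to GI stabilises ZTL. ZTL marks the clock proteins TOC1 and PRR5 for degradation, and FKF1 together with GI removes repressors of the flowering gene CONSTANS. In Arabidopsis the ZTL transcript is nearly level through the day and the ZTL protein cycles, whereas the transcript of the related FKF1 peaks in the afternoon. Both poplar genes named ZTL changed many-fold between the sampled hours, as given below, which differs from what is known of Arabidopsis ZTL transcripts. The name is therefore used only as the study's name, and which family member each gene resembles most by sequence was not analysed here.

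In the P. trichocarpa v4.1 annotation Potri.005G196700 lies on chromosome 5 from 20340433 to 20351684 on the minus strand, with 4834 exon bases in 16 merged exon blocks. Potri.002G064400 lies on chromosome 2 from 4410936 to 4422779 on the plus strand, with 4707 exon bases in 15 blocks. The GI genes share 9 exon blocks of equal length in the same order, 2560 bases in all, of which the longest has 1542 bases. Potri.010G105700 lies on chromosome 10 from 12720705 to 12724718 on the plus strand and has 3602 exon bases. Potri.008G135200 lies on chromosome 8 from 8997951 to 9001630 on the minus strand and has 2532 exon bases. Each ZTL-named gene consists of 2 exon blocks with 1 intron between them, so all 4 genes form pairs of like structure on different chromosomes. No member overlaps another gene. A read that aligns equally well to more than 1 place was not counted, so paralogues that share sequence lose reads, and reads of a hybrid were aligned to the genome of P. trichocarpa.

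The total count per library ranged from 17348563 to 48110546, with a median of 24020818. Levels are given in CPM, the counts of a gene scaled by TMM to 1e+06 counts in the tested genes of its library. The scaling factors lay between 0.921 and 1.01 in the LM libraries and between 1.02 and 1.08 in the EE libraries. The column names of LM and EE libraries carry different tags, whose meaning the headers do not state, so tag and time of day cannot be told apart. No source used here says that each library is a separate tree, so the tests measure the spread between these libraries. In whole leaves, fewer cells of a type and less RNA per cell cannot be told apart.

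Both GI genes were higher in the early evening at every soil water content. For Potri.005G196700 the late-morning libraries A, B and C had 126, 136 and 130.3 CPM in LM80, 131, 137 and 118 CPM in LM50, and 122, 104 and 89.8 CPM in LM30. The early-evening libraries had 549.9, 508 and 452 CPM in EE80, 462, 448 and 481 CPM in EE50, and 501, 467 and 483 CPM in EE30. No EE library came near the highest LM library, and the 3 EE groups overlapped one another. At 80 % SWCg the gene rose 3.85-fold (95 % interval 3.31 to 4.48), a log2 fold change of 1.94 with a standard error of 0.103 (edgeR adjusted p = 1.92e-10). It rose 3.60-fold at 50 % SWCg and 4.60-fold at 30 % SWCg (edgeR adjusted p = 2.82e-10 and 5.03e-11).

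The paralogue Potri.002G064400 changed less. Its LM libraries had 123, 101 and 94.6 CPM in LM80, 106, 114 and 111 CPM in LM50, and 104, 104 and 111 CPM in LM30. In the early evening the values were 294, 297 and 271 CPM in EE80, 278, 301 and 286 CPM in EE50, and 301, 285 and 283 CPM in EE30. The groups of 1 time of day lay on top of each other, and the 2 times were wide apart. The rise at 80 % SWCg was 2.70-fold (95 % interval 2.38 to 3.07), with a log2 fold change of 1.43, a standard error of 0.087 and an edgeR adjusted p of 8.07e-10. The log2 fold change was 1.39 at 50 % SWCg and 1.45 at 30 % SWCg.

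**Figure D1:**
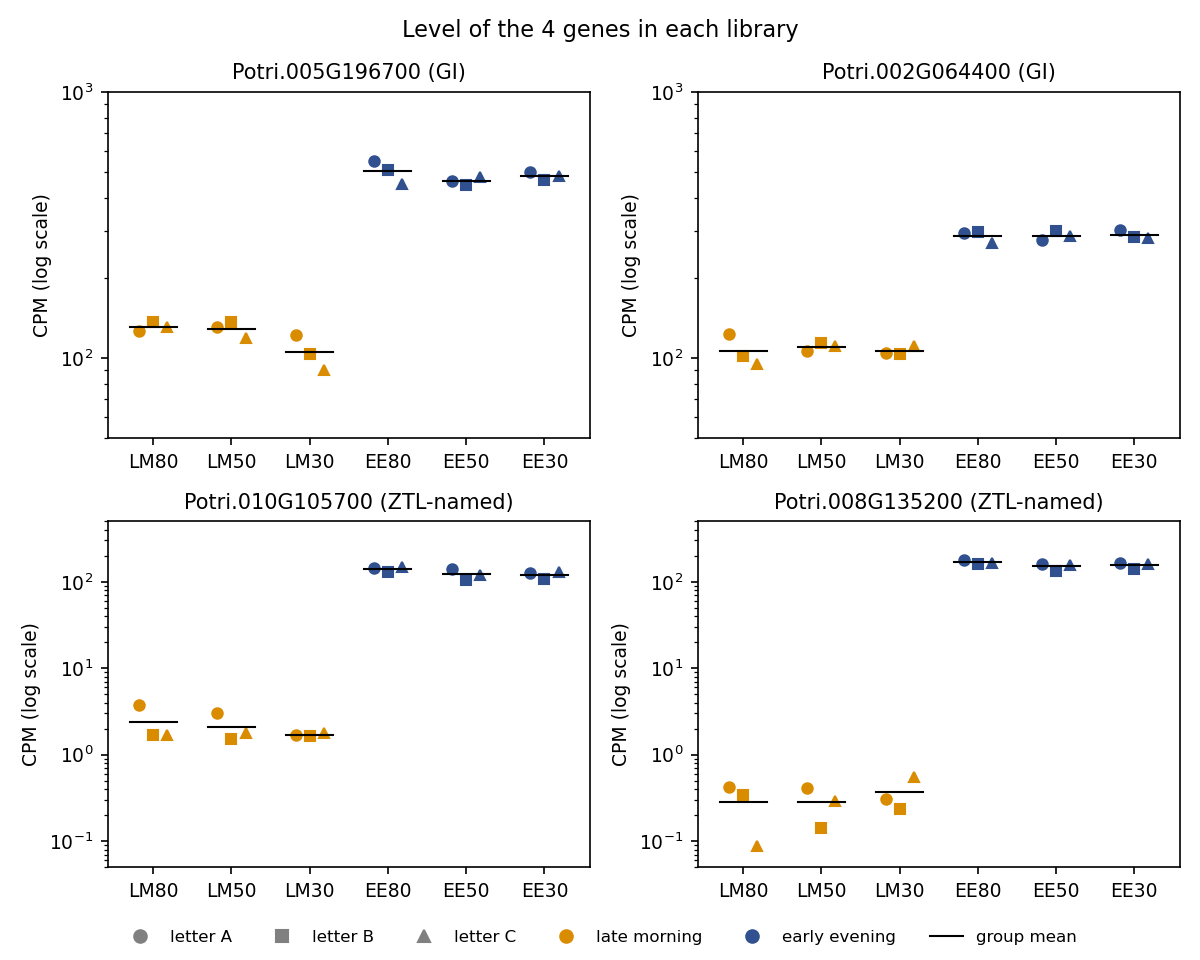
Level of each gene in CPM on a log axis, by group on the horizontal axis, with 1 point per library (shape gives the letter), colour for the time of day and a bar at the group mean. All 9 EE libraries lie above all 9 LM libraries for each gene, with GI between 89.8 and 137 CPM in the late morning for Potri.005G196700 and the ZTL-named genes at most 3.74 CPM.

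The ZTL-named genes were at a few CPM or less in the late-morning libraries and at 104 CPM or more in every early-evening library. Potri.010G105700 had 3.74, 1.69 and 1.68 CPM in LM80, 3.02, 1.52 and 1.77 CPM in LM50, and 1.70, 1.65 and 1.76 CPM in LM30, which rest on 19 to 80 reads per library. In the early evening it had 143, 129.8 and 147 CPM in EE80, 141, 104 and 119.9 CPM in EE50, and 127, 107 and 129.7 CPM in EE30. In the late morning, library A stood above B and C in LM80 and LM50 but not in LM30. The rise at 80 % SWCg was 57.7-fold (95 % interval 40.5 to 82.2), a log2 fold change of 5.85 with a standard error of 0.241 (edgeR adjusted p = 9.36e-12). It was 5.91 at 50 % SWCg and 6.15 at 30 % SWCg on the log2 scale.

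Potri.008G135200 showed the widest change of the 4 genes. Its LM libraries held 9, 9 and 1 reads in LM80, 5, 3 and 4 reads in LM50, and 4, 3 and 6 reads in LM30. These are 0.421, 0.338 and 0.0887 CPM, 0.408, 0.142 and 0.295 CPM, and 0.309, 0.235 and 0.557 CPM in the same order. The summed LM80 count of 19 has an exact 95 % Poisson interval of 11.4 to 29.7, which covers counting error only. In the early evening the gene had 181, 161 and 166 CPM in EE80, 162, 133 and 158 CPM in EE50, and 165, 141 and 161 CPM in EE30. At 80 % SWCg it rose 520.3-fold (95 % interval 383 to 707), a log2 fold change of 9.02 with a standard error of 0.209 (edgeR adjusted p = 5.98e-14). This interval and standard error, like all those of edgeR given here, were computed back from the F statistic. In proportion the interval of this rise is narrower than the Poisson interval of the LM80 count, so it understates the uncertainty of the rise. At 50 % SWCg the log2 fold change was 9.16 and at 30 % SWCg it was 8.74. The LM groups overlapped one another at these low counts.

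All 4 members were called higher in the early evening at each soil water content by edgeR. Over all genes tested, 27.3 % were called higher in EE80 than in LM80, 28.8 % in EE50 than in LM50 and 28.3 % in EE30 than in LM30. A call alone was thus common among all genes, and the sizes of the changes are given by rank. Ordered by log2 fold change of EE80 against LM80 among 23700 genes, Potri.008G135200 ranked 3 and Potri.010G105700 ranked 24, whereas Potri.005G196700 ranked 947 and Potri.002G064400 ranked 1613. Ordered by p in the same comparison, Potri.008G135200 ranked 1. The log2 fold changes of the 4 members ran from 1.43 to 9.02, and their median of 3.90 lay between the GI pair and the ZTL-named pair. Over all genes tested the median was 0.03, and the median size regardless of direction was 0.41. Every EE library was above every LM library for 4 of 4 members and for 19.2 % of all genes tested.

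**Figure D2:**
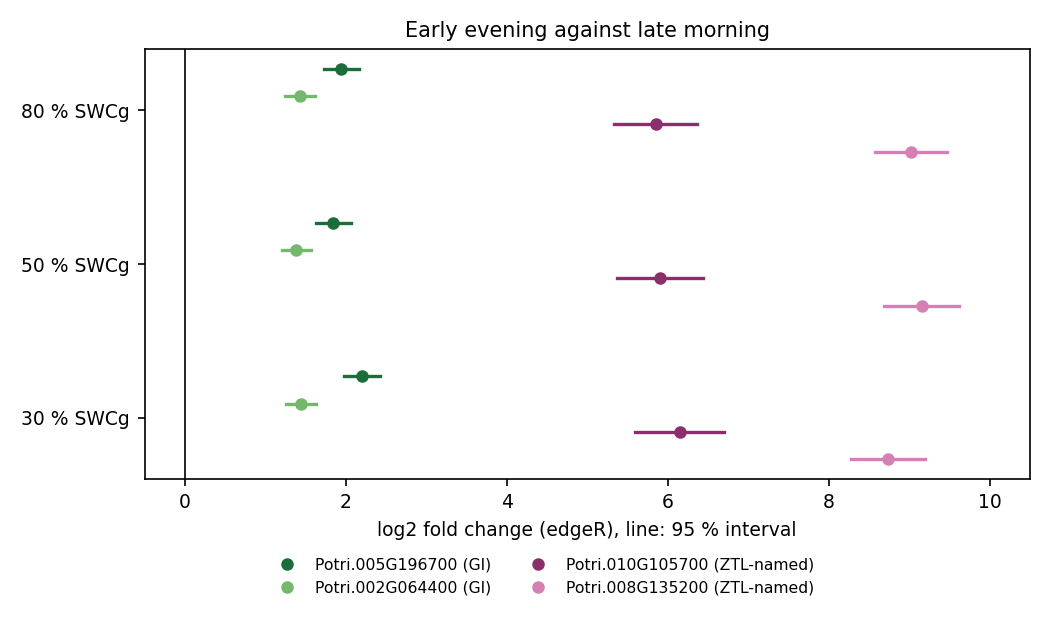
Log2 fold change of early evening against late morning (horizontal axis, edgeR) at each soil water content, 1 colour per gene, with lines for 95 % intervals. At 80 % SWCg the GI genes lie at 1.94 and 1.43 and the ZTL-named genes at 5.85 and 9.02, and the order of the 4 genes is the same at 50 and 30 % SWCg.

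To ask whether the 2 genes of a pair change by unequal amounts, the log2 ratio of their counts was taken within each library, where depth cancels. For the GI pair (Potri.005G196700 to Potri.002G064400) the ratio averaged 0.17 ± 0.239 over the LM libraries and 0.74 ± 0.085 over the EE libraries (SD, n = 9 each). The highest LM library reached 0.46 and the lowest EE library 0.57, so the times did not overlap. The difference of 0.58 on the log2 scale, 1.49-fold, had an exact two-sided permutation p of 0.00025, the smallest that 8000 arrangements within water levels can give. Potri.005G196700 supplied 53.4 % of the counts of the pair in the late morning and 62.6 % in the early evening. At 1 soil water content the difference was 0.50 (80 %), 0.46 (50 %) and 0.77 (30 %), each with an exact permutation p of 0.1, the smallest that 3 against 3 libraries allow.

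The ZTL-named pair changed order. Potri.010G105700 was the higher of the 2 by counts in the late morning, with a log2 ratio to Potri.008G135200 of 2.67 ± 0.618 (SD, n = 9), and the lower in the early evening, with −0.32 ± 0.082 (SD, n = 9). The lowest LM library stood at 1.58 and the highest EE library at −0.17, so the times did not overlap here either. The difference of −2.98 also had an exact permutation p of 0.00025, the smallest of 8000 arrangements, and with 2 pairs tested the Benjamini-Hochberg adjusted value is the same for both. The LM share rests on few reads: 299 of Potri.010G105700 and 44 of Potri.008G135200 over 9 libraries, or 87.2 % from the former, against 44.7 % of the pair's counts in the early evening. At 1 soil water content the exact permutation p was again 0.1, with differences of −3.29 (80 %), −3.13 (50 %) and −2.54 (30 %).

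**Figure D3:**
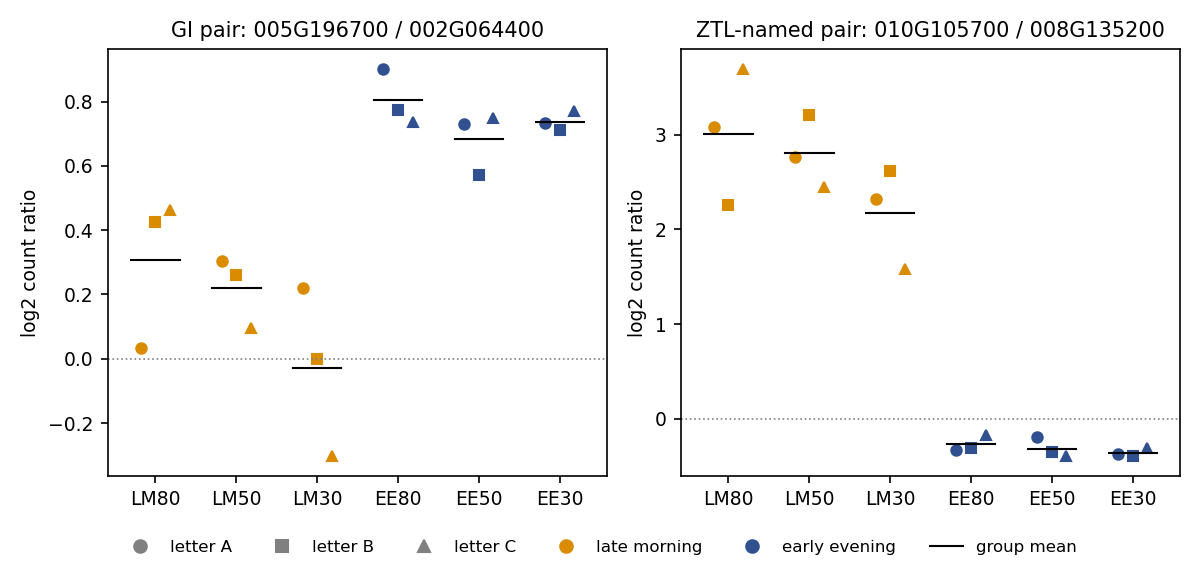
Log2 ratio of the counts of the 2 genes of each pair (vertical axis, 0.5 added to each count), by group, with 1 point per library and a bar at the group mean. For the GI pair all 9 EE libraries (0.57 and above) lie above all LM libraries (0.46 and below), and for the ZTL-named pair all EE libraries lie at −0.17 or below and all LM libraries at 1.58 or above.

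Levels of different genes were compared per kilobase of exon. In the late morning the order over 9 libraries was Potri.005G196700 with 25.1 ± 3.24 CPM per kb, Potri.002G064400 with 22.9 ± 1.75, Potri.010G105700 with 0.572 ± 0.215 and Potri.008G135200 with 0.123 ± 0.057 (SD, n = 9). The GI genes lay within each other's spread, and in LM30 alone their order was turned, with 21.7 ± 3.29 and 22.6 ± 0.850 CPM per kb (SD, n = 3). Both stood far above the ZTL-named genes. In the early evening Potri.005G196700 came first with 100.0 ± 6.69 CPM per kb, Potri.008G135200 and Potri.002G064400 followed with 62.7 ± 5.57 and 61.3 ± 2.23, and Potri.010G105700 came last with 35.5 ± 4.28 (SD, n = 9). Potri.008G135200 and Potri.002G064400 did not differ beyond their spread, and the former was the lower of the 2 in EE50 (59.6 against 61.3 CPM per kb) and EE30 (61.5 against 61.6). The summed GI level per kb was 73.1 ± 26.4 times the summed ZTL-named level in LM80 and 1.56 ± 0.135 times in EE80 (SD, n = 3). The same ratio was 79.6 ± 30.2 in LM50 and 72.7 ± 11.5 in LM30, and 1.70 in both EE50 and EE30. Of the genes tested, 13.3 % had a lower level per kb than Potri.010G105700 in LM80 and 87.0 % in EE80. For Potri.008G135200 the corresponding values were 1.48 % and 93.4 %.

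Soil water content moved none of the 4 genes past the threshold at either time of day. In LM30 against LM80, 0 of 4 members were called by edgeR, where 0.0675 % of all genes were called. At an unadjusted p under 0.05 the count was 1 of 4 members and 3575 of 23700 genes, and DESeq2 called 0 members and 538 genes. The member under 0.05 was Potri.005G196700, with 122, 104 and 89.8 CPM in LM30 against 126, 136 and 130.3 CPM in LM80. All LM30 libraries were below all LM80 libraries, which held for 8.94 % of all genes tested. Its log2 fold change was −0.32 with a standard error of 0.101 (95 % interval −0.53 to −0.10, unadjusted p = 0.00616, edgeR adjusted p = 0.163), and the adjusted p lay between 0.066 and 0.392 over 25 alternative settings. The paralogue Potri.002G064400 had a log2 fold change of 0.00 (95 % interval −0.18 to 0.18) in the same comparison. Potri.010G105700 had −0.51 (95 % interval −1.20 to 0.18), and without library A of LM80, its highest late-morning library, the value was 0.01. For Potri.008G135200 the value was 0.16, with a 95 % interval from −0.79 to 1.12, or 0.577-fold to 2.17-fold, which leaves room for a change of either sign. That interval rests on 13 reads in LM30 and 19 in LM80, and it may likewise understate the uncertainty.

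In LM50 against LM80, which shares the LM80 libraries with the previous comparison, 0 of 4 members and 0 % of all genes were called by edgeR. At an unadjusted p under 0.05 there were 0 members and 468 genes, and DESeq2 called 0 members and 1 gene. The log2 fold changes were −0.02 for Potri.005G196700, 0.05 for Potri.002G064400, −0.26 for Potri.010G105700 and −0.30 for Potri.008G135200, and every 95 % interval held 0. Without library A of LM80 the value of Potri.010G105700 was 0.25, so its sign rested on that library.

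In the early evening, where all 4 genes were well covered (at least 1565 reads per library), the intervals were narrower. In EE30 against EE80, 0 of 4 members were called by edgeR, where 1.94 % of all genes were called. At an unadjusted p under 0.05 there were 0 members and 4163 genes, and DESeq2 called 0 members and 1033 genes. The largest change by size was that of Potri.010G105700, −0.21 on the log2 scale (95 % interval −0.59 to 0.17, edgeR adjusted p = 0.591). Its EE30 libraries had 127, 107 and 129.7 CPM and its EE80 libraries 143, 129.8 and 147 CPM, so that every EE30 library was below every EE80 library by a narrow margin, as for 10.3 % of all genes tested. The other log2 fold changes were −0.12 for Potri.008G135200, −0.06 for Potri.005G196700 and 0.01 for Potri.002G064400. The 95 % interval of Potri.002G064400 was the narrowest and ran from 0.890-fold to 1.14-fold.

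In EE50 against EE80, which has the EE80 libraries in common with the comparison before it, 0 of 4 members were called by edgeR, against 0.0127 % of all genes. An unadjusted p under 0.05 was reached by 0 members and 1511 genes, and DESeq2 called 0 members and 38 genes. The log2 fold changes were −0.21 for Potri.010G105700, −0.17 for Potri.008G135200, −0.12 for Potri.005G196700 and 0.00 for Potri.002G064400. Both ZTL-named genes thus had their highest mean in EE80, at 140.2 ± 9.23 and 169 ± 10.0 CPM (SD, n = 3), with 1 or more libraries of EE50 inside the range of EE80 in each case. The GI gene Potri.005G196700 also had its highest mean in EE80, at 503 ± 49.0 CPM (SD, n = 3).

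**Figure D4:**
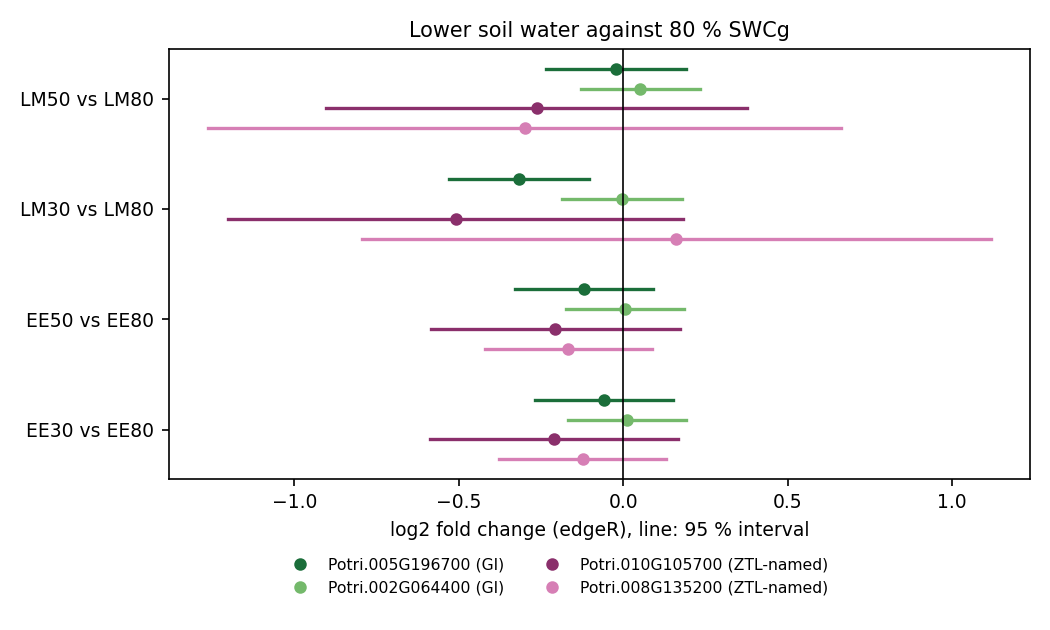
Log2 fold change of each lower soil water content against 80 % SWCg at the same time of day (horizontal axis, edgeR), 1 colour per gene, with lines for 95 % intervals. The interval of Potri.005G196700 in LM30 against LM80 (−0.53 to −0.10) is the only one that does not hold 0, and its adjusted p is 0.163. The late-morning intervals of the ZTL-named genes are the widest.

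Whether the response to soil water differed between the times of day was tested as an interaction. At 30 % SWCg 0 of 4 members and 0 % of all genes were called by edgeR, with 0 members and 2040 genes at an unadjusted p under 0.05, and DESeq2 called 0 members and 33 genes. The difference for Potri.005G196700, EE minus LM, was 0.26 on the log2 scale (95 % interval −0.04 to 0.56, unadjusted p = 0.0861, edgeR adjusted p = 0.629). At 50 % SWCg 0 members and 0 % of all genes were called, with 0 members and 1050 genes at an unadjusted p under 0.05, and by DESeq2 0 members and 2 genes. The lower level of Potri.005G196700 in LM30 was therefore not shown to be particular to the late morning.

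Among 10 other clock genes, the pairs named CCA1, PRR9, PRR7, PRR5 and LUX, 6 were called higher and 3 lower in EE80 than in LM80 by edgeR, with a median log2 fold change of 1.34. PRR5 is the clock protein that ZTL marks for degradation in Arabidopsis. Its poplar genes rose together with the ZTL-named genes, by 4.62 (Potri.012G005900) and 2.25 (Potri.015G002300) on the log2 scale (edgeR adjusted p = 1.07e-10 and 4.62e-07). The genes named LUX, whose protein belongs to the evening complex that represses transcription in the evening, rose by 6.99 (Potri.001G243600) and 4.48 (Potri.009G035000). Among these 14 genes the change of Potri.008G135200 was the largest by size. CCA1, a morning transcription factor that represses evening genes, moved the other way, with −4.04 (Potri.004G074300) and −2.06 (Potri.017G144800). None of these 10 genes was called for soil water by edgeR. At an unadjusted p under 0.05 there were 2 of 10 in LM30 against LM80 (3575 of 23700 over all genes), 0 in LM50 against LM80 (468), 0 in EE30 against EE80 (4163) and 1 in EE50 against EE80 (1511). DESeq2 called none, whereas the likelihood ratio test on edgeR's robust dispersion and the replicate block each called 1 in LM30 against LM80.

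**Figure D5:**
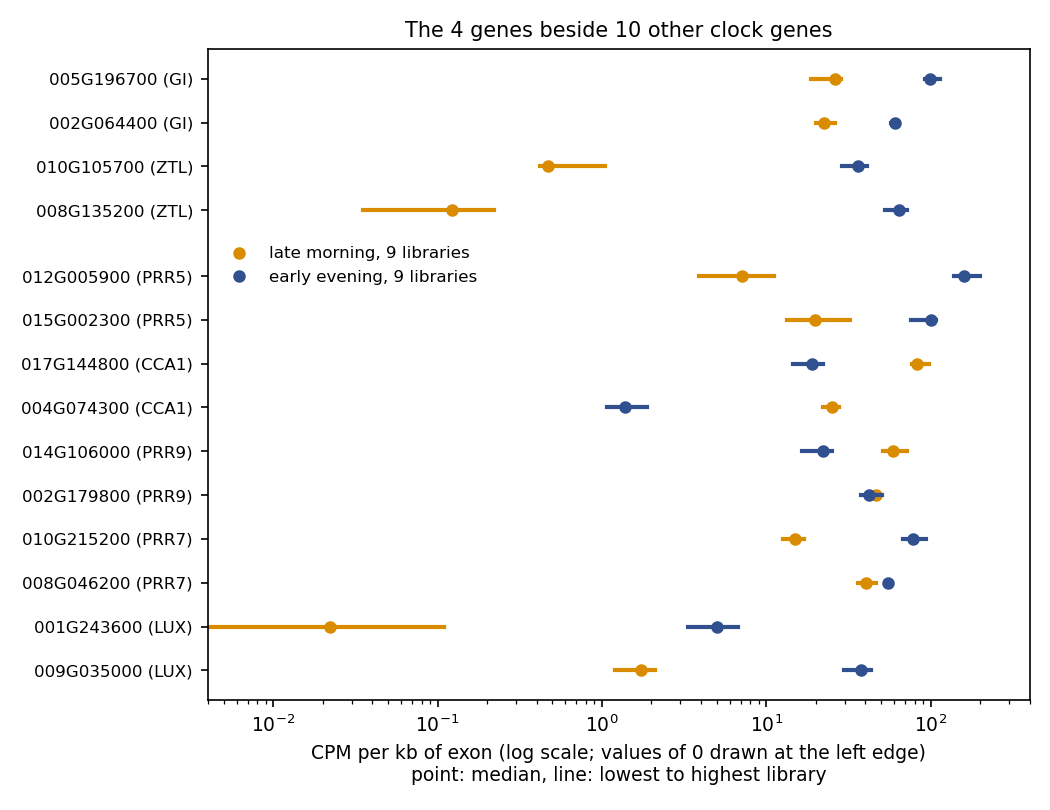
Level per kb of exon on a log axis for the 4 genes (top) and 10 other clock genes, with the median as a point and the range of 9 libraries as a line for each time of day. The ZTL-named genes have late-morning medians below 1 CPM per kb, as does Potri.001G243600 (LUX), and in the early evening the 4 genes lie between 35.5 and 100.0 CPM per kb on average.

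The genes whose pattern was most like each member were ranked by Pearson correlation of log2 CPM over 18 libraries, as a description. All such values are high because 9 LM and 9 EE libraries form a pair of separate clusters. For Potri.005G196700 the nearest were Potri.017G079100 (r = 0.995), the PRR5 gene Potri.012G005900 (r = 0.993) and Potri.014G155800 (r = 0.993). For Potri.002G064400 they were Potri.015G012900, Potri.005G237500 and Potri.001G281300 (each r = 0.995). For Potri.010G105700 they were Potri.001G337400 (r = 0.999), Potri.009G041800 (r = 0.997) and Potri.014G006000 (r = 0.996), and for Potri.008G135200 Potri.009G041100, Potri.014G015600 and Potri.010G092900 (each r = 0.997). The numbers of genes with r of 0.99 or more were 24, 72, 94 and 124 for the 4 members in this order.

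Within the pairs, likeness differed. The ZTL-named genes correlated at 0.996, and each ranked high among the genes nearest to the other (8 for Potri.010G105700 and 6 for Potri.008G135200). By Spearman correlation these ranks were 4 and 3, and with a prior count of 0.5 in place of 2 they were 18 and 8. The GI genes correlated at 0.983, and the paralogue ranked 159 for Potri.005G196700 and 280 for Potri.002G064400, or 1278.5 and 1645 by Spearman correlation. After each group's mean was taken away, the correlation of the 18 remaining deviations was 0.67 in the ZTL-named pair and −0.09 in the GI pair. Before group means were taken away, Potri.002G064400 was nearer to the ZTL-named genes (r = 0.992 and 0.994) than to its own paralogue (0.983). For the deviations its correlations with the ZTL-named genes were 0.41 and 0.46, which ranked 2750 and 2006 among the genes tested. The deviations of Potri.002G064400 were largest in LM80, 0.22 in library A and −0.16 in C. Those of Potri.008G135200 were 0.55 and −0.85 there, on 9 and 1 reads. In libraries A and B of EE50 the signs were opposite, with −0.05 and 0.06 for Potri.002G064400. There Potri.010G105700 had 0.23 and −0.22 and Potri.008G135200 0.11 and −0.18, and signs were mixed in EE80 and EE30.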

How the data were processed

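Per the labels and the methods, the authors removed adapters with Trimmomatic (version not given in the sources used here), used HISAT2 2.2.1 to align reads to genome v4.1 of P. trichocarpa, and counted reads per gene with featureCounts 2.0.1 (SAMtools 1.3.1 is also named). The deposited values are raw counts, 1 column per library, without normalization. The command in the file header sets no strand option, so strand was ignored although the kit is stranded, and multi-mapping reads were left out by default.

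Groups came from the sample labels. Genes were kept at a mean log2 CPM between −2 and 9, the range given in the methods. One model of the 6 groups was fitted to the 23700 remaining genes in R 4.3.3 with TMM in edgeR 4.0.16 (quasi-likelihood F test). An adjusted p below 0.05 (Benjamini-Hochberg over all genes tested) was called. Ratios of paralogues used 0.5 added to each count and an exact permutation test, with 2 pairs tested (Python 3.11.15, scipy 1.17.1), and plots were made with matplotlib 3.10.9. The fit was tested on simulated data. Alternatives were DESeq2 1.42.0 as the test or for its size factors only, a likelihood ratio test on edgeR's robust dispersion, other filters, a replicate block, smaller fits and leaving out each library. Libraries within a group varied beyond sampling noise (chi-square per degree of freedom of 5.18 or more for all 18 pairs of libraries).

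The letters A, B and C recur in every group, and no source says what they mark. After group means were removed, same-letter libraries of EE30 and EE80 correlated at 0.206, 0.197 and 0.378, which meets the rule for pairing used here (above 0.1 for each letter). No other combination of groups met it. This pairing comes from the data and not from the design.

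The text names the 4 members, the 3 genes most like each in pattern, and up to 3 called clock genes with the largest change. The PRR5 gene Potri.015G002300 and the CCA1 genes were added after their values were seen. The members and lists were chosen with earlier results of these data known. Lists by annotation text, leaf cell type markers, TOC1, ELF3, ELF4 and sequences were not analysed here.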

Additional observations from a re-analysis of the deposited data

How the results depend on the processing

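The 12 calls of members between times of day held under each of 25 alternatives, and no alternative gave a call of a member for soil water or its interaction. The log2 fold change of EE80 against LM80 lay between 1.88 and 2.02 for Potri.005G196700, 1.36 and 1.55 for Potri.002G064400, 5.59 and 6.37 for Potri.010G105700, and 8.79 and 9.30 for Potri.008G135200. Potri.008G135200 did not pass the filter when LM libraries were fitted alone and has no value there. Counts over all genes moved more than those of the members: for LM30 against LM80 edgeR called 16 genes, DESeq2 538, the likelihood ratio test 694 and the replicate block 340. For EE30 against EE80, where the letters met the rule for pairing, the counts were 460, 1033, 1576 and 863 in the same order, and for EE50 against EE80 they were 3, 38, 125 and 4. For the interaction at 30 % SWCg they were 0, 33, 44 and 0.

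Some differences with soil water and some interactions changed sign under an alternative, none of them called. Most were near 0. Larger ones that changed sign when 1 library was left out were those of the ZTL-named genes in the late morning. Against LM80, Potri.010G105700 had −0.51 in LM30 and −0.26 in LM50, and Potri.008G135200 had −0.30 in LM50. Their interactions at 30 % SWCg (0.30 and −0.28) also changed sign. With the replicate block, Potri.002G064400 had 0.001 in LM30 against LM80 and Potri.010G105700 had −0.021 for the interaction at 50 % SWCg. The block changed no other sign and no call of a member, and the ratios of both pairs had an exact permutation p of 0.00391 with it, the smallest that swaps within 9 pairs allow. With the likelihood ratio test, Potri.002G064400 had 0.027 in LM30 against LM80 and −0.0155 for the interaction at 30 % SWCg, and Potri.010G105700 had −0.12 for the interaction at 50 % SWCg. For Potri.002G064400 in EE50 against EE80, DESeq2 gave −0.0011 and its size factors −0.0017.

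When each library was left out in turn, the log2 fold change of Potri.005G196700 ran from −0.069 to 0.033 in LM50 against LM80 and from −0.13 to 0.0091 in EE30 against EE80. That of Potri.002G064400 ran from −0.080 to 0.12 in LM30, −0.025 to 0.17 in LM50, −0.030 to 0.035 in EE30 and −0.036 to 0.030 in EE50, each against 80 % SWCg, and its interactions from −0.11 to 0.090 at 30 % and −0.17 to 0.0295 at 50 % SWCg. That of Potri.010G105700 ran from −0.77 to 0.0101 in LM30 and −0.58 to 0.25 in LM50, with interactions from −0.22 to 0.56 and −0.46 to 0.37, and the sign changes in LM30 and LM50 came from leaving out library A of LM80. That of Potri.008G135200 ran from −0.22 to 0.44 in LM30 and −0.63 to 0.13 in LM50, with interactions from −0.56 to 0.10 and −0.30 to 0.47. It has 1 to 9 reads in each LM library, which limits what these comparisons can show.

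By Spearman in place of Pearson correlation, the paralogue ranked 1278.5 for Potri.005G196700, 1645 for Potri.002G064400, 4 for Potri.010G105700 and 3 for Potri.008G135200. With a prior count of 0.5 it ranked 18 for Potri.010G105700. The cause was not tested.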

Other observations

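In the late morning the genes named PRR5 were highest in library A of each group. Potri.012G005900 had 38.9 CPM in library A of LM80 against 28.3 and 26.7 CPM in B and C, 44.3 against 27.8 and 34.6 CPM in LM50, and 30.4 against 17.4 and 15.6 CPM in LM30. Potri.015G002300 had 79.9 against 62.7 and 63.7 CPM, 105.1 against 55.9 and 70.3 CPM, and 84.0 against 43.2 and 50.9 CPM in the same order. Potri.010G105700 had its highest late-morning values in the same libraries of LM80 and LM50 (3.74 and 3.02 CPM). Other genes shared the trait. The PRR7 gene Potri.010G215200 was also highest in library A of LM80, LM50 and LM30 (48.6, 45.6 and 46.1 CPM), and Potri.008G135200 in that of LM80 and LM50. In the early evening Potri.015G002300 was instead lowest in library A of each group (309, 247 and 286 CPM in EE80, EE50 and EE30). These genes were picked after their values were seen.

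Of the 8 genes that lie nearest to the 4 members on their chromosomes, 2 were called higher and 4 lower in EE80 than in LM80 by edgeR, where 27.3 % of all genes tested were called higher and 24.5 % lower. The largest rise was that of Potri.010G105600, which lies 6031 bases before Potri.010G105700, at 0.74 on the log2 scale (edgeR adjusted p = 2.34e-06). Potri.008G135100, which lies 1939 bases from Potri.008G135200, had 0.65 (edgeR adjusted p = 2.41e-07). Since Potri.008G135200 is on the minus strand, this neighbour lies beyond the end of its transcript and not before its start.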
